A study of Homo sapiens with 6 samples.

Results

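The genes described here are 51 genes of the G2 phase and mitosis, a named list of mitotic kinases, cyclins, checkpoint, kinetochore, spindle, cytokinesis and chromosome structure genes. All 51 were found by symbol among the 20263 listed Ensembl gene IDs, and all 51 passed the filter on low counts that left 14306 genes for testing. Their levels came from RNA sequencing of U118, an established human glioma line whose source the labels give as astroblastoma, sampled at day 2. The 6 libraries were 4 of cells given siRNA against the kinase gene RIPK2 (siRIPK2_1 to siRIPK2_4), 1 that received control siRNA (siNC) and 1 labelled wild type (WT), which is read here as untransfected. All cells were of the same line and were kept in the same serum-containing medium. The labels do not say whether the 4 siRIPK2 libraries are different siRNAs, separate cultures or repeats, so the p-values rest on a library-to-library spread that may be technical. The controls are 1 library each and carry no SD.

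Cells enter mitosis when cyclins A and B activate CDK1, and they leave it when the anaphase-promoting complex (APC/C) marks cyclin B and securin for destruction. In between, kinetochores attach chromosomes to the spindle under the watch of the spindle checkpoint, and a contractile ring then divides the cell. Many of the genes involved are transcribed together late in the cell cycle under FOXM1, MYBL2 and the DREAM repressor complex, through CCAAT boxes and a cell cycle homology region (CHR) near the transcription start. Their summed transcript level is therefore widely used as a readout of how many cells in a culture are cycling. In bulk RNA, fewer cells in G2 and mitosis and less transcript per cell cannot be told apart.

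RefSeq promoters of 300 bases (250 before to 50 after the start, GRCh38.p14) were given for 44 of the 51 genes. The letters CCAAT, read on both strands, were in 72.7% of the 44 promoters, against 36.6% of the 15272 promoters of listed genes. The CHR forms TTTGAA or TTCGAA, read on both strands, were in 72.7% against 13.5%. Both elements stood together in 56.8% of the mitosis genes' promoters and in 5.61% of all promoters. For 69 other mitosis genes, 54 of which had a promoter, the CHR forms were in 59.3%, and for 31 promoters of DNA replication genes in 6.45%. A match of letters is a description and not a known site. Shown here are 4 promoters, of genes that follow the common library pattern described next (CCNB2 and CDC20) and of genes that depart from it (PLK1 and CENPF). Capitals mark CCAAT and the CHR letters on either strand, and all 4 genes are on the plus strand.
CCNB2, chr15:59104896-59105195: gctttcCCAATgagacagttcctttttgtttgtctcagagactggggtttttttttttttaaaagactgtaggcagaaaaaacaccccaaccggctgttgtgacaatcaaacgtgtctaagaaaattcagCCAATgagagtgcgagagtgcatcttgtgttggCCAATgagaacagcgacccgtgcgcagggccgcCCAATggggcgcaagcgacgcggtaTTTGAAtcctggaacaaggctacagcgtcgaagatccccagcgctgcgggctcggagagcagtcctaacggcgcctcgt
CDC20, chr1:43358731-43359030: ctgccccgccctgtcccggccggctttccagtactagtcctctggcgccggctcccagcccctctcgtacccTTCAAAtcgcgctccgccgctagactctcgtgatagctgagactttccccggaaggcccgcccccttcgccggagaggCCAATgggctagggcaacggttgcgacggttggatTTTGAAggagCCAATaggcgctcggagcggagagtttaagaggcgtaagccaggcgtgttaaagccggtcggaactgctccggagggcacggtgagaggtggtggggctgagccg
PLK1, chr16:23678639-23678938: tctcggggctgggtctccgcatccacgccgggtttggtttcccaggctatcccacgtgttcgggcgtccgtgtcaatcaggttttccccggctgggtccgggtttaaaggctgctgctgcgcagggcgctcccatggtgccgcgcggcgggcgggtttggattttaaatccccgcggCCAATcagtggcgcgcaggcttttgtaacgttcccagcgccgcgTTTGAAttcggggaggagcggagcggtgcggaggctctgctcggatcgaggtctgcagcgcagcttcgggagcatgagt
CENPF, chr1:214602945-214603244: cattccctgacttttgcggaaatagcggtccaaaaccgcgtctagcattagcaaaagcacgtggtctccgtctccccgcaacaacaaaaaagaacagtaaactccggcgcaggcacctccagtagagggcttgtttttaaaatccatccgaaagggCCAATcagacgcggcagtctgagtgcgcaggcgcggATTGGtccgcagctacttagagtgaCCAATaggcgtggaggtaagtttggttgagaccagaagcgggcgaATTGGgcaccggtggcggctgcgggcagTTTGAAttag
In CCNB2 the 4 CCAAT boxes begin at -244, -120, -87 and -54 from the annotated start and the CHR letters at -29. PLK1 has 1 CCAAT box at -73 and CHR letters, again, at -29. CDC20 has CCAAT boxes at -100 and -55 and CHR letters at -178 and -65. CENPF has CCAAT letters at -94, -58, -33 and 12, with CHR letters only downstream of the start, at 40. NUF2, which was lowest in siRIPK2_2 and highest in siRIPK2_4, also has CHR letters only downstream, at 16. A link of the motifs to the library pattern was not tested.

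Total counts ranged from 33540619 to 45309423 per library, and the lowest count of any mitosis gene in any library was 278. RIPK2 itself stood at 3.86, 11.9, 6.27 and 4.32 CPM (counts scaled to library size with TMM factors) in siRIPK2_1 to siRIPK2_4, against 43.4 CPM in siNC and 56.8 CPM in WT. Its level was lower in every siRIPK2 library than in both controls, with an exact 2-sided permutation p = 0.0667, the smallest that the 15 splits of 6 libraries allow. In edgeR its log2 fold change was -2.72 (SE 0.526) against siNC and -3.11 (SE 0.522) against WT, with adjusted p = 0.972 and 1, so the targeted gene itself did not pass the threshold. Of the 9 glioma and astrocyte markers, S100B (0 to 0.0486 CPM), AQP4 (0 in all) and OLIG2 (0 to 0.187) were at or near 0. GFAP was low but counted in every library (0.532 to 1.09 CPM, 24 to 36 reads). SOX2 ranged from 0.748 CPM in siNC, below GFAP there (1.09 CPM), to 14 CPM in siRIPK2_1. SLC1A3 (3.52 to 13.1 CPM), NES (18.5 to 73.1), CD44 (224 to 556) and VIM (3813 to 7572) were detected in all libraries. Of the macrophage and microglia markers, PTPRC (0 to 0.11 CPM) and AIF1 (0 in all) were at or near 0, CSF1R stood at 1.18 to 3.69 CPM and CD68, a lysosomal protein gene, at 91.1 to 164 CPM. The epithelial markers EPCAM (0 to 0.17 CPM), CDH1 (0 to 0.0664) and KRT18 (0.416 to 1.01) and the endothelial markers PECAM1 (0.664 to 2.75), VWF (0.193 to 1.19) and CDH5 (0.33 to 4.19) were low. The exons of 13 of the 51 genes overlap those of another listed gene, as do those of 5320 of the 20263 listed IDs. Without a stated strand setting, reads shared with a gene on the other strand cannot be told apart. This touches CCNA2, CDC25C, PLK1, FOXM1, SPC24, KIF4A, KIF18A, KIF20A, ANLN, NCAPG and SMC4. BUB1B and CENPA overlap a gene on the same strand, where a strand setting would not separate the reads.

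The 4 knockdown libraries differed widely among themselves in mitosis genes. Median levels were highest in siRIPK2_4 and siRIPK2_1, intermediate in WT, siNC and siRIPK2_3, and lowest in siRIPK2_2. Summed over the 51 genes, the level was 8126, 4186, 5905 and 9103 CPM in siRIPK2_1 to siRIPK2_4, against 6548 CPM in siNC and 6679 CPM in WT. On the scale of log2(CPM + 1) minus each gene's mean over the 6 libraries, the median of the 51 genes was 0.36, -0.62, -0.13 and 0.49 in siRIPK2_1 to siRIPK2_4, against -0.03 in siNC and 0.05 in WT. The median over all 14306 genes was between 0.01 and 0.02 in every library. The median SD over the 4 siRIPK2 libraries was 0.57 for the mitosis genes and 0.29 for all genes tested, in log2(CPM + 1).

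**Figure D1:**
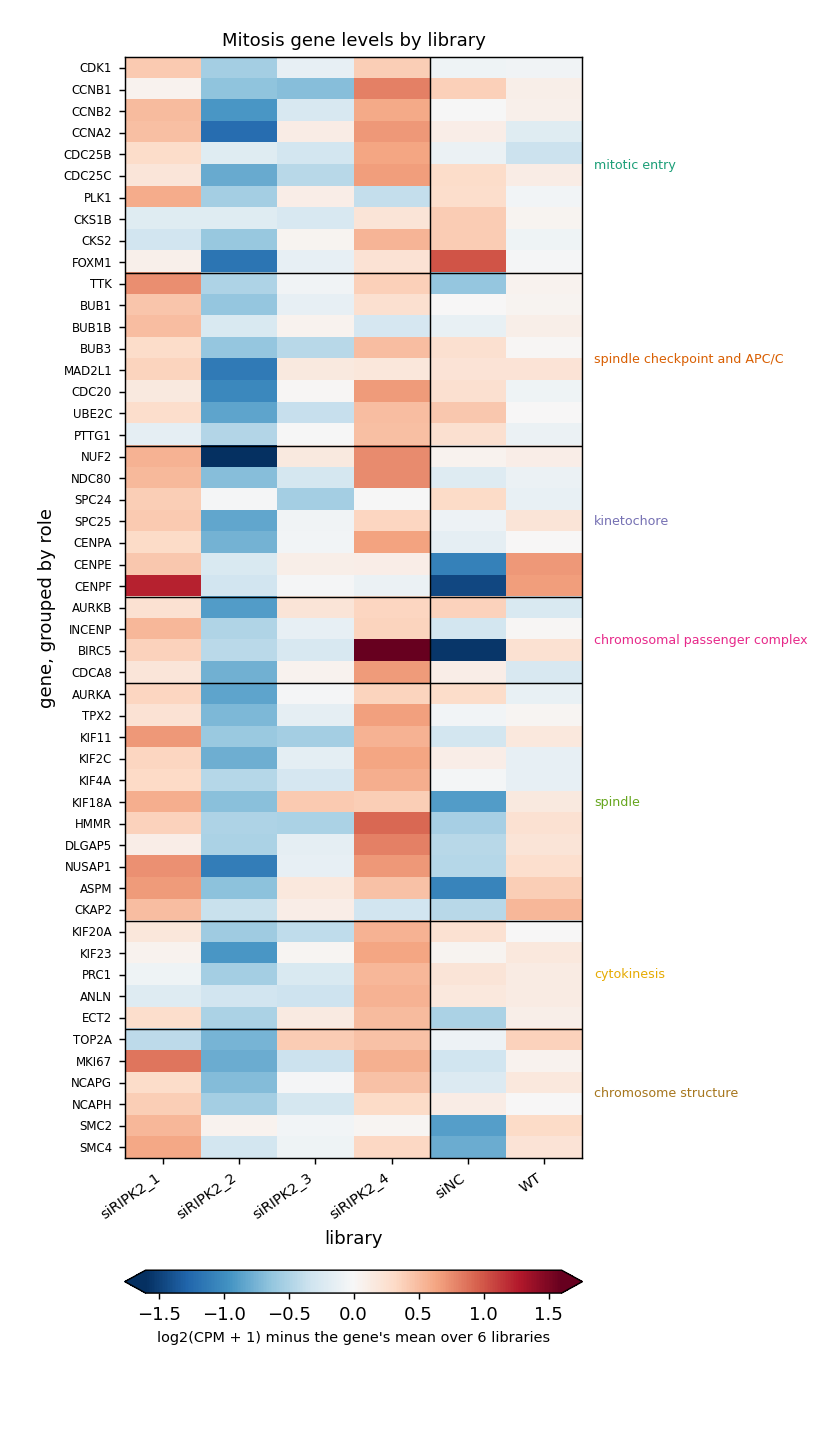
Level of each of 51 mitosis genes (rows, grouped by role) in each of the 6 libraries (columns), as log2(CPM + 1) minus the gene's mean over the 6 libraries, with red above and blue below the mean. The siRIPK2_2 column is blue for 50 of 51 genes, where 6851 of all 14306 genes tested were below their mean. The siRIPK2_4 column is red for 46 of 51, where 7369 of the 14306 were above their mean. The siNC column is mixed, with dark blue cells for CENPF, CENPE, BIRC5 and ASPM and a red cell for FOXM1.

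The order of the medians was that of many genes, but not of all. The lowest of the 6 libraries was siRIPK2_2 for 35 of 51 mitosis genes (68.6%), against 17.2% of all genes tested. It was siNC for 10 (19.6%, against 18%), siRIPK2_3 for 4 (7.84%, against 18%), siRIPK2_4 for BUB1B alone (1.96%, against 16.9%) and WT for CDC25B alone (1.96%, against 8.79%). The highest was siRIPK2_4 for 28 of 51 (54.9%), against 16.3% of all genes, and siRIPK2_1 for 18 of 51 (35.3%), against 20.8%. It was siNC for CKS1B, FOXM1 and AURKB (5.88%, against 15.2%) and WT for CENPE and CKAP2 (3.92%, against 9.41%). Levels exceeded both controls in siRIPK2_4 for 40 genes (78.4%, against 36% of all genes) and in siRIPK2_1 for 34 (66.7%, against 37.2%). They were below both controls in siRIPK2_2 for 39 (76.5%, against 34.7%) and in siRIPK2_3 for 22 (43.1%, against 36.1%). All 51 were higher in siRIPK2_1 than in siRIPK2_2, where 49.2% of all genes were, and the median ratio was 1.99. The level in siRIPK2_4 was above that in siRIPK2_2 for 49 of 51, whereas 50.2% of all genes were higher in siRIPK2_2 than in siRIPK2_4. For the 51 genes the median log2 difference, siRIPK2_2 minus siRIPK2_4, was -1.16. Between siRIPK2_1 and siRIPK2_4 the mitosis genes were divided, with 20 higher in siRIPK2_1 and 31 higher in siRIPK2_4. Of all genes, 49.9% were higher in siRIPK2_1 than in siRIPK2_4. These are differences between single libraries, so they carry no test.

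**Figure D2:**
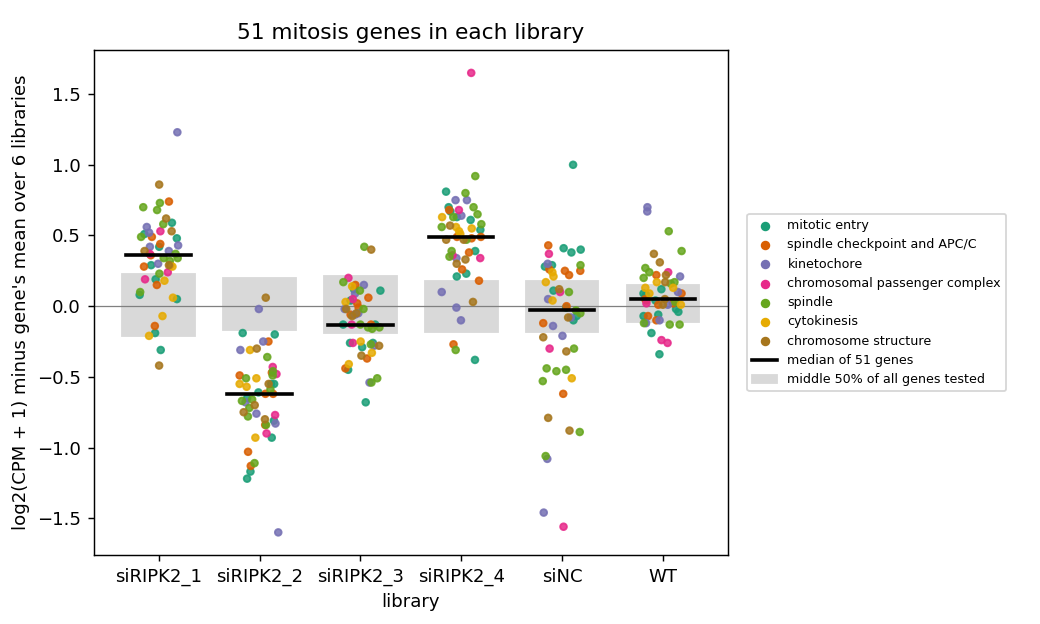
Each point is 1 of 51 mitosis genes in 1 library, as log2(CPM + 1) minus the gene's mean over 6 libraries, coloured by role. Black lines are the medians of the 51 genes and grey boxes the middle 50% of all 14306 genes tested. The median line is at -0.62 in siRIPK2_2 and at 0.49 in siRIPK2_4, outside the grey box in both.

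Genes for mitotic entry had medians of 0.24, -0.63, -0.19 and 0.58 in siRIPK2_1 to siRIPK2_4, against 0.28 in siNC and -0.03 in WT. CCNB2, a B-type cyclin gene (ENSG00000157456, chromosome 15, 59105078 to 59125045, plus strand, GRCh38), stood at 145, 52.8, 84.7 and 156 CPM in siRIPK2_1 to siRIPK2_4, against 101 CPM in siNC and 107 CPM in WT. The cyclin A gene CCNA2 stood at 136, 41.2, 106 and 159 CPM, against 105 CPM in siNC and 85.3 CPM in WT. For both cyclins siRIPK2_2 was the lowest library and siRIPK2_4 the highest, and the knockdown libraries lay on either side of both controls. CCNB1, the other B-type cyclin gene here, was instead low in siRIPK2_3 as well, at 166, 102, 100.3 and 283 CPM, against 209 CPM in siNC and 171 CPM in WT. CDC25B, a phosphatase that activates CDK1, stood at 452, 324, 303 and 574 CPM, against 345 CPM in siNC and 292 CPM in WT. All 4 siRIPK2 libraries lay above WT, and 2 of them above siNC. PLK1, a kinase of mitotic entry and spindle assembly (ENSG00000166851, chromosome 16, 23677656 to 23690367, plus strand), stood at 501, 227, 359 and 257 CPM, against 404 CPM in siNC and 324 CPM in WT. Unlike the cyclins, PLK1 was low in siRIPK2_4, below both controls. FOXM1, the transcription factor of the late cell cycle (ENSG00000111206, chromosome 12, 2857681 to 2877155, minus strand), stood at 159, 66.3, 137 and 176 CPM, against 302 CPM in siNC and 148 CPM in WT. The single high library for FOXM1 was siNC, and the siRIPK2 libraries lay around WT.

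Spindle checkpoint and APC/C genes showed the same order of the 4 siRIPK2 libraries, with medians of 0.32, -0.62, -0.04 and 0.43 in siRIPK2_1 to siRIPK2_4, against 0.23 in siNC and 0.03 in WT. CDC20, the activator through which APC/C starts anaphase (ENSG00000117399, chromosome 1, 43358955 to 43363203, plus strand), stood at 496, 218, 450.0 and 714 CPM, against 528 CPM in siNC and 424 CPM in WT. Per kb of exon it had the highest mean level of the 51 genes, 231 CPM per kb, while CENPE had the lowest, 2.88 CPM per kb. BUB3, a checkpoint protein, stood at 293, 156, 176 and 337 CPM, against 287 CPM in siNC and 243 CPM in WT. For both genes siRIPK2_4 was highest and siRIPK2_2 lowest of the 6. MAD2L1, which holds CDC20 inactive until kinetochores are attached, was at 52.1, 18, 45.2 and 45.9 CPM, against 47.3 CPM in siNC and 47.3 CPM in WT. In this gene siRIPK2_2 alone was low. The checkpoint kinase gene TTK was at 66.1, 27.7, 37.6 and 51.3 CPM, against 25.1 CPM in siNC and 40.7 CPM in WT, so siNC was the lowest library. BUB1B is a checkpoint kinase-like gene whose exons overlap those of the read-through gene BUB1B-PAK6. It was at 132, 78.2, 97.7 and 77.1 CPM, against 85.9 CPM in siNC and 99.3 CPM in WT. BUB1B was the only member that was lowest in siRIPK2_4, although its siRIPK2_4 and siRIPK2_2 levels were almost equal.

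Kinetochore genes held the widest contrasts between knockdown libraries. NUF2, a subunit of the NDC80 complex that binds microtubules, was at 55.2, 11.6, 41.3 and 63 CPM in siRIPK2_1 to siRIPK2_4, against 38.4 CPM in siNC and 39.8 CPM in WT, a ratio of 5.44 between siRIPK2_4 and siRIPK2_2. Its partner NDC80 was at 64.1, 27.4, 36.4 and 75.4 CPM, against 38.3 CPM in siNC and 41.5 CPM in WT. In both genes siRIPK2_1 and siRIPK2_4 stood above the controls and siRIPK2_2 below them. CENPF, a large kinetochore and spindle protein (ENSG00000117724, chromosome 1, 214603195 to 214664588, plus strand), was at 333, 114, 139 and 131 CPM, against 50.7 CPM in siNC and 225 CPM in WT. CENPE, a kinetochore motor, was at 34.4, 21.1, 27 and 27.2 CPM, against 11.5 CPM in siNC and 41.8 CPM in WT. For these 2 genes the lowest library was siNC. For CENPE the 4 siRIPK2 libraries lay above siNC and below WT, as they did for CKAP2 among the spindle genes. The share of all genes that lay between the controls in this way was not counted.

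The chromosomal passenger complex corrects faulty attachments and guides cytokinesis. Its subunit gene CDCA8 (borealin) was at 148, 75.9, 134 and 209 CPM in siRIPK2_1 to siRIPK2_4, against 139 CPM in siNC and 108 CPM in WT. INCENP, the scaffold, was at 141, 69.5, 88.7 and 125 CPM, against 78.9 CPM in siNC and 99 CPM in WT. Both were lowest in siRIPK2_2. BIRC5 (survivin; ENSG00000089685, chromosome 17, 78214186 to 78225636, plus strand) was at 72.1, 41, 46.5 and 177 CPM, against 18.2 CPM in siNC and 65.9 CPM in WT. It had the widest range of the 51 genes, with a ratio of 9.69 between its highest library, siRIPK2_4, and its lowest, siNC.

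Among spindle genes, TPX2, which activates Aurora A on microtubules, was at 659, 341, 507 and 885 CPM in siRIPK2_1 to siRIPK2_4, against 544 CPM in siNC and 575 CPM in WT. KIF2C, a microtubule-depolymerising kinesin, was at 236, 108, 167 and 287 CPM, against 199 CPM in siNC and 169.7 CPM in WT. NUSAP1, a spindle-associated protein, was at 116, 31.6, 63.3 and 114 CPM, against 50.2 CPM in siNC and 84.1 CPM in WT. All 3 were lowest in siRIPK2_2, and the siRIPK2 libraries lay on either side of both controls. ASPM, a spindle pole protein, was at 104, 40.6, 72.9 and 90.1 CPM, against 30.5 CPM in siNC and 85.1 CPM in WT. KIF18A, a kinesin that dampens chromosome movements and whose exons overlap METTL15, was at 25.8, 10.3, 23 and 22.5 CPM, against 8.66 CPM in siNC and 19 CPM in WT. CKAP2, a microtubule-stabilising protein, was at 70.5, 38.5, 53.8 and 39.9 CPM, against 36.3 CPM in siNC and 72.2 CPM in WT. In these 3 genes siNC was the lowest library, and CKAP2 was below WT in all 4 siRIPK2 libraries, as was CENPE.

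Of the cytokinesis genes, siRIPK2_4 was the highest library for 5 of 5, against 54.9% of the 51 genes and 16.3% of all genes tested. It was also the highest for 6 of 10 mitotic entry genes and 6 of 11 spindle genes. PRC1, which bundles central spindle microtubules, was at 213, 153, 188 and 325 CPM in siRIPK2_1 to siRIPK2_4, against 259 CPM in siNC and 244 CPM in WT. ANLN, a scaffold of the contractile ring was at 234, 218, 215 and 399 CPM, against 306 CPM in siNC and 296 CPM in WT. For both, only siRIPK2_4 was above the controls. KIF23, a central spindle kinesin, was at 113, 56.6, 111 and 169 CPM, against 112 CPM in siNC and 122 CPM in WT. ECT2, which activates RHOA at the division site, was at 136, 78.6, 124 and 161 CPM, against 78.8 CPM in siNC and 119 CPM in WT, so its siNC and siRIPK2_2 levels were almost equal.

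Of the chromosome structure genes, MKI67, the Ki-67 proliferation antigen, was at 601, 189.5, 259.9 and 492 CPM in siRIPK2_1 to siRIPK2_4, against 264 CPM in siNC and 342 CPM in WT. TOP2A, which untangles sister DNA, was at 161, 128, 287 and 302 CPM, against 205 CPM in siNC and 281 CPM in WT. These 2 proliferation markers differed in siRIPK2_1, where MKI67 was at its highest and TOP2A below both controls. The condensin core subunits SMC2 and SMC4 were lowest in siNC. SMC2 was at 112, 80.4, 74.5 and 78.8 CPM, against 41.5 CPM in siNC and 95.5 CPM in WT. SMC4, whose exons overlap IFT80 and TRIM59, was at 313.9, 165.3, 194.3 and 257.2 CPM, against 117.7 CPM in siNC and 238.1 CPM in WT. For both genes all 4 siRIPK2 libraries lay above siNC and overlapped WT.

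The mitosis genes were then compared between groups with edgeR's quasi-likelihood test and Benjamini-Hochberg adjustment over all genes. Against siNC, 0 of 51 had an adjusted p under 0.05, as did 0% of 14306 genes, and the lowest adjusted p among them was 0.972. At an unadjusted p under 0.05 there were 7 genes (13.7%), against 4.77% of all genes: 6 higher genes (11.8% of 51), against 3.56% of all genes, and 1 lower gene (1.96%), against 1.21%. The 6 higher ones were CENPE (log2 fold change 1.26, SE 0.389, unadjusted p = 0.0126), SMC2 (1.06, SE 0.356, 0.0184), CENPF (1.82, SE 0.664, 0.0261), ASPM (1.34, SE 0.528, 0.0362), BIRC5 (2.20, SE 0.88, 0.0376) and SMC4 (0.98, SE 0.416, 0.0469) in edgeR. The lower one was FOXM1 (-1.16, SE 0.455, 0.0347). In 10 of 51 genes all 4 siRIPK2 libraries lay above siNC (19.6%, against 19.3% of all genes), and in 3, CKS1B, FOXM1 and AURKB, all 4 lay below it (5.88%, against 17.3%). In all, 33 genes had a fold change above 0 (64.7%, against 51.7% of all genes) and 18 below 0 (35.3%, against 48.3%). The median log2 fold change was 0.14 over the 51 genes and 0.02 over all genes. It was 0.01 with limma-voom, 0.33 without siRIPK2_2, but -0.01 without siRIPK2_1 and -0.09 without siRIPK2_4.

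**Figure D3:**
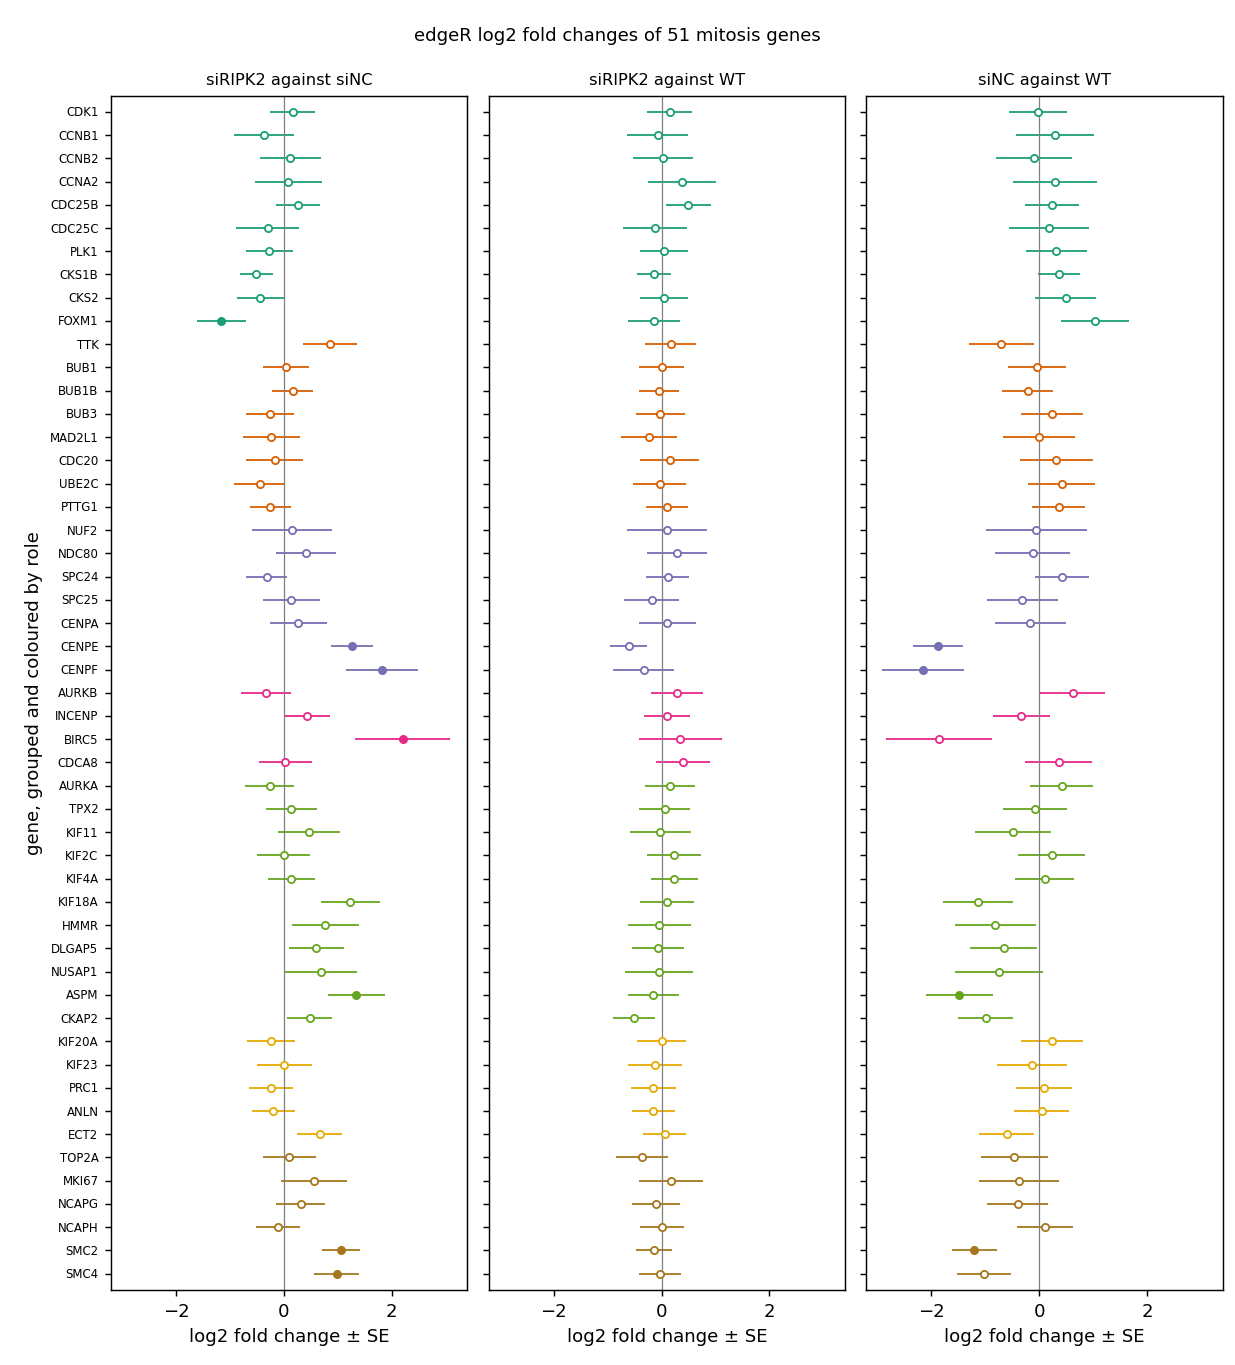
edgeR log2 fold changes with their SE for 51 mitosis genes in 3 comparisons, coloured by role, with filled points where the unadjusted p was under 0.05. Filled points number 7 against siNC (left), 0 against WT (middle) and 4 for siNC against WT (right). The left and right panels share the single siNC library.

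Against WT, 0 of 51 passed (0% of all genes), and 0 of 51 had an unadjusted p under 0.05, where 1.08% of all genes did. Log2 fold changes were above 0 for 26 genes (51%, against 51.9% of all genes) and below 0 for 25 (49%, against 48.1%), with a median of 0.00, against 0.01 over all genes. The largest differences in either direction were in CENPE (-0.61, SE 0.339, unadjusted p = 0.112 in edgeR) and CDC25B (0.50, SE 0.409, 0.256). The SEs of the 51 genes ranged from 0.309 to 0.766 on the log2 scale. All 4 siRIPK2 libraries lay above WT for CDC25B alone (1.96%, against 11.5% of all genes) and below WT for CENPE and CKAP2 (3.92%, against 12.8%). Without siRIPK2_2 the median was 0.17, and without siRIPK2_1 or siRIPK2_4 it was -0.11 or -0.19.

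Against both controls together, 0 of 51 passed (0% of 13901 genes), and 0 had an unadjusted p under 0.05, against 2.55% of all genes. No mitosis gene had all 4 siRIPK2 libraries above both controls, where 4.96% of all genes did, and none had all 4 below both, where 5.5% did. Log2 fold changes were above 0 for 29 genes (56.9%, against 52.1% of all genes) and below 0 for 22 (43.1%, against 47.9%). The median was 0.07 (0.01 over all genes), 0.28 without siRIPK2_2, and -0.05 or -0.07 without siRIPK2_1 or siRIPK2_4. The lowest unadjusted p in edgeR was 0.0969, for FOXM1. Its log2 fold change was -0.74 (SE 0.398), which came to -0.13 without siNC and -1.17 without WT.

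The single siNC and WT libraries were also compared. For siNC against WT, 0 of 51 passed (0% of all genes), and 4 had an unadjusted p under 0.05, all lower in siNC (7.84% of 51, against 2.73% of all genes in either direction and 2.09% lower). Log2 fold changes were above 0 for 23 genes (45.1%, against 49.6% of all genes) and below 0 for 28 (54.9%, against 50.2%). The 4 genes were CENPE (log2 fold change -1.87, unadjusted p = 0.00407 in edgeR), SMC2 (-1.20, 0.0224), CENPF (-2.15, 0.0239) and ASPM (-1.48, 0.0446). These 4 are also among those that were higher in siRIPK2 against siNC, and both comparisons use the same siNC library. The siNC library was the lowest of 6 for 10 genes (19.6%, against 18% of all genes): TTK, CENPE, CENPF, BIRC5, KIF18A, HMMR, ASPM, CKAP2, SMC2 and SMC4. Apart from BIRC5, with a GC content of 52.2%, their longest transcripts had 35.3% to 40.8% GC. The median GC content was 37.2% for these 10, 44.3% for the other 41 and 48.5% for all genes tested. It was not taken over the genes outside the list that were also lowest in siNC. Over the 51 genes, the log2 difference of siNC minus WT had a Spearman rho of 0.64 with GC content and -0.55 with transcript length, against 0.25 and -0.15 over 14293 genes, as descriptions across genes of the same 2 libraries. With offsets for length and GC in the fit, the median of siNC against WT was 0.02 in place of -0.05, and CENPF stood at -1.94 and CENPE at -1.45. The part of GC content and length in the siNC values was not tested further.

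**Figure D4:**
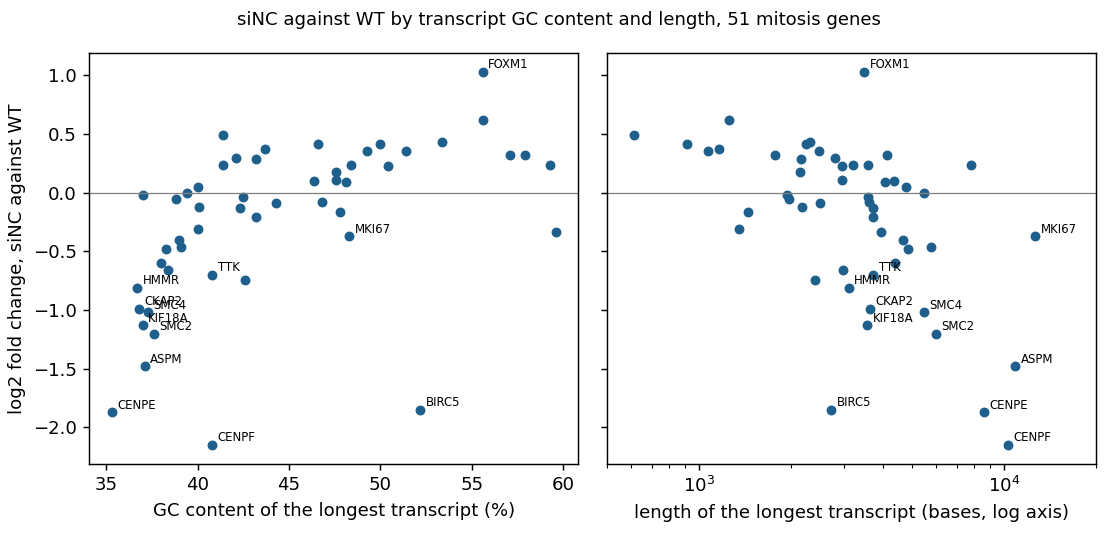
Log2 fold change of siNC against WT for 51 mitosis genes (points) against the GC content (left) and the length on a log axis (right) of each gene's longest transcript. Named are the 10 genes lowest in siNC, FOXM1 and MKI67. The lowest values are CENPF (-2.15), CENPE (-1.87) and BIRC5 (-1.85), and BIRC5 stands apart from the others in GC content.

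In the siRIPK2 libraries, the deviation of siRIPK2_2 had a rho of -0.16 with GC content and 0.31 with length over the 51 genes, against -0.03 and 0.06 over 14293 genes. That of siRIPK2_4 had a rho of 0.10 and -0.30, against -0.03 and -0.05. The deviation of siRIPK2_1 had a rho of -0.28 and 0.34, against -0.13 and 0.22. With the length and GC offsets the median of the 51 genes was 0.38, -0.62, -0.12 and 0.46 in siRIPK2_1 to siRIPK2_4, against 0.03 in siNC and 0.05 in WT, so the order of the siRIPK2 libraries was as without them. The offsets were fitted over all genes tested, so they do not remove a trend particular to the 51.

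Genes around the mitosis list showed how far the library pattern extended. Of 69 other mitosis genes, 42 (60.9%) were lowest in siRIPK2_2, against 17.2% of all genes tested. The medians of the 69 were 0.31, -0.51, 0.02 and 0.32 in siRIPK2_1 to siRIPK2_4, against 0.05 in siNC and 0.07 in WT. Among 35 DNA replication genes, which act in the preceding S phase, 28 (80%) were lowest in siRIPK2_2, against 17.2% of all genes. Of the 35, 24 (68.6%) were highest in siRIPK2_1, against 20.8% of all genes, but only 2 (5.71%) in siRIPK2_4, against 16.3%. Their medians were 0.30, -0.38, 0.06 and -0.00 in siRIPK2_1 to siRIPK2_4, against 0.09 in siNC and 0.11 in WT. In siRIPK2_1 the medians of replication and mitosis genes were thus both high, while in siRIPK2_4 that of the replication genes was near 0. The APC/C list of 16 genes held the regulators FZR1 and FBXO5 beside subunits, and its median stayed between -0.06 and 0.10 in every library. The DREAM and MYBL2-MuvB list of 16 genes also held NFYA, NFYB, NFYC and DYRK1A. Its median stood at 0.21 in siRIPK2_1 and -0.23 in siRIPK2_2. The list of G1 cyclins, CDKs and CDK inhibitors also took in RB1, E2F1, E2F2 and E2F3. The median of its 16 genes that passed the filter ranged from -0.14 in siRIPK2_2 to 0.17 in siNC.

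**Figure D5:**
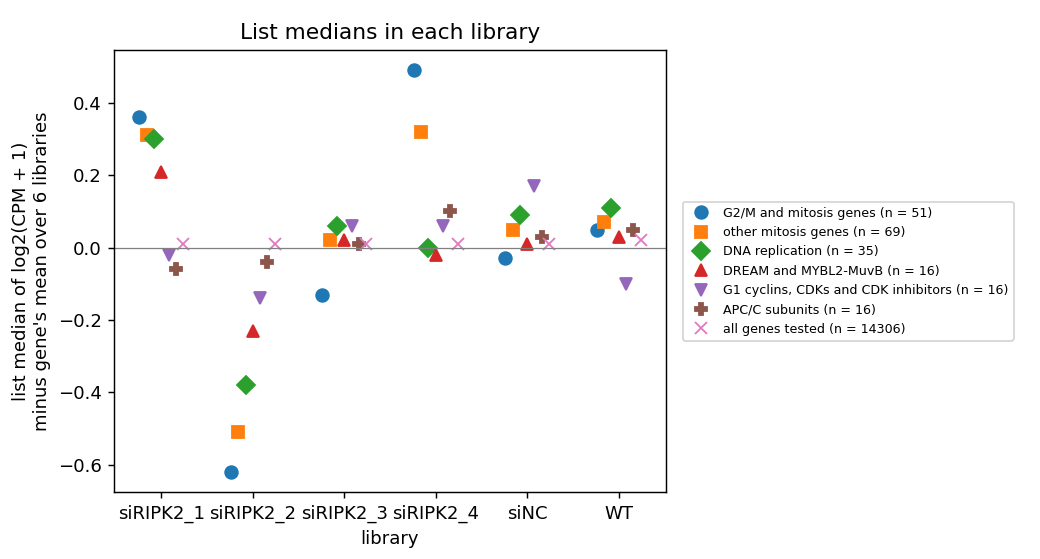
Median over each gene list, in each library, of log2(CPM + 1) minus the gene's mean over 6 libraries. The mitosis genes and the other mitosis genes are high in siRIPK2_1 and siRIPK2_4 and low in siRIPK2_2, whereas DNA replication genes are at 0.30 in siRIPK2_1 and -0.00 in siRIPK2_4.

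None of these related genes passed against siNC in edgeR (0% of all genes). At an unadjusted p under 0.05, 6 of 69 other mitosis genes and 2 of 16 genes of the G1 list differed from siNC, against 4.77% of all genes. Of the DNA replication, APC/C, and DREAM and MYBL2-MuvB lists, 0 of 35, 0 of 16 and 0 of 16 genes did. KNL1, the kinetochore scaffold, stood at 34.7, 33.1, 36.9 and 43.3 CPM in siRIPK2_1 to siRIPK2_4, against 17.7 CPM in siNC and 36.1 CPM in WT (log2 fold change 1.07, unadjusted p = 0.0134 in edgeR). CDKN1A, which encodes the CDK inhibitor p21, stood at 60.1, 79.7, 74.8 and 59.3 CPM, against 114 CPM in siNC and 58.4 CPM in WT (-0.74, 0.0377). The siRIPK2 libraries overlapped WT for KNL1 and lay between WT and siNC for CDKN1A. SGO2, which protects centromeric cohesion, stood at 55.2, 21.5, 38.1 and 41.4 CPM, against 15.5 CPM in siNC and 32.3 CPM in WT (1.33, 0.0362), and so was lowest in siNC as well. Within the siRIPK2 libraries CDKN1A was higher in siRIPK2_2 and siRIPK2_3, where mitosis genes were lower, than in siRIPK2_1 and siRIPK2_4. The CDK inhibitor genes CDKN2D and CDKN1B, picked by the same rule, did not have this order. CDKN2D stood at 11.6, 15.5, 7.57 and 13.8 CPM in siRIPK2_1 to siRIPK2_4, against 24.1 CPM in siNC and 18 CPM in WT. CDKN1B stood at 32.7, 30.7, 23.5 and 39.8 CPM, against 48.5 CPM in siNC and 24.8 CPM in WT. A link of these genes to mitosis gene levels was not tested.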

How the data were processed

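The deposited file is a single table of raw counts by gene, which the authors left unnormalised. Per the labels' protocols, mRNA was selected by its poly(A) tail, fragmented and primed with random oligonucleotides. The submitters' processing notes list bedtools, HISAT2, Trimmomatic and FastQC, and the build GRCh38. Versions, annotation release and strand setting were not found in the labels or file header.

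From the counts, edgeR 4.0.16 in R 4.3.3 (TMM, filterByExpr at 10 counts, quasi-likelihood test, Benjamini-Hochberg threshold 0.05) was fitted to 3 groups over all 6 libraries. Its 3 residual degrees of freedom come from siRIPK2, whose spread stands in for that of each lone control. A separate model of siRIPK2 against both controls had 4. The SEs given for edgeR were derived from its F statistic, as the absolute log2 fold change over the square root of F. Library levels are CPM with TMM factors, and deviations use log2(CPM + 1). Alternatives were RLE factors, no filter, DESeq2 1.42.0, limma-voom 3.58.1, length and GC offsets (splines with 5 degrees of freedom) and leaving out each library. Coordinates, exon lengths and GC content come from GENCODE 29, which held 20224 of the IDs. Promoters are RefSeq's, and the ends of 39 of 44 were found in a GENCODE transcript of the gene. Every pair of libraries differed beyond sampling noise. The edgeR tests of siRIPK2 against siNC and against both controls were also run on simulated counts, whose outcome is not given here. What size of change the tests could find in these libraries is therefore not stated.

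The members, lists and tests were chosen with earlier results of these data known. In each of 7 role groups, values are given for the 2 genes with the highest mean CPM, the gene with the lowest unadjusted p in each comparison and the gene with the widest range. CCNB1, CCNB2, CCNA2, NUF2 and BUB1B were added after their values were seen. Each related list allowed up to 3 genes by lowest p against siNC, of which KNL1, SGO2, CDKN1A, CDKN2D and CDKN1B are given.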

Additional observations from a re-analysis of the deposited data

Results flagged for a closer look

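Within the 4 siRIPK2 libraries, 5 of 51 mitosis genes had 1 library far from the other 3 by Dixon's test on log2(CPM + 1), which flags about 1 in 20 groups by chance. This is 9.8% of them, and 5.45% of the 14306 genes tested were flagged in the same way. MAD2L1 (18 CPM), AURKB (28.3 CPM) and KIF18A (10.3 CPM) stood apart as low in siRIPK2_2. CKS1B (81.9 CPM) and ANLN (399 CPM) stood apart as high in siRIPK2_4.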

How the results depend on the processing

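No mitosis gene passed the adjusted threshold in any comparison under any alternative run. Genes of the whole table with an adjusted p under 0.05 numbered 0 in edgeR in each comparison. The DESeq2 Wald test called 74 against siNC, 9 against WT, 11 for siNC against WT and 11 against both controls, limma-voom called 1 against WT, and edgeR with no filter 1 against WT. With 1 library left out in turn, edgeR called 0 to 2 genes against both controls. Mitosis genes with an unadjusted p under 0.05 against siNC numbered 7 with all libraries and 4 to 10 with 1 left out, from 4 (7.84%, against 4.57% of all genes) without siRIPK2_1 to 10 (19.6%, against 4.99%) without siRIPK2_2. They numbered 5 (9.8%, against 4.14%) with length and GC offsets. Against WT they numbered 0 to 1, with 1 (1.96%, against 1.23%) without siRIPK2_1. Against both controls they numbered 0 to 7, with 7 (13.7%, against 4.73%) only without WT, which leaves the comparison with siNC. Their median log2 fold change ranged from -0.09 to 0.33 against siNC, from -0.19 to 0.17 against WT and from -0.07 to 0.28 against both controls, so its sign depends on which library is left out. With 1 library left out, MAD2L1 against WT ranged from -0.38 to 0.01 (-0.23 with all, 0.01 without siRIPK2_2), and SMC4 against both controls from -0.03 to 0.97 (0.39 with all, -0.03 without siNC). The cause was not tested. RIPK2 passed in DESeq2 (adjusted p = 0.00759 against siNC, 0.0034 against WT and 1.74e-06 against both controls) and, without siRIPK2_2, in edgeR against both controls (0.0431). The library medians kept their order of siRIPK2_4, siRIPK2_1, siRIPK2_3 and siRIPK2_2 under a pseudocount of 0.25, RLE factors, total counts and the length and GC offsets, the last added after seeing the data. No paired analysis was possible because each control is 1 library and shares 1 replicate number with the siRIPK2 libraries. With 1 library per control, the spread of the controls is not measured.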
